A study of Mus musculus with 46 samples.

Results

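The genes described here are 39 genes of the lysosome: digestive enzymes, their helper proteins, proteins of the lysosomal membrane, 3 transcription factors and subunits of the proton pump. They were chosen by symbol from a written list, drawn up with earlier results of these data known. All 39 were found by symbol among the 20999 genes of the count table, and all 39 passed the filter on low counts, which kept 12230 genes.

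The lysosome is the acidic compartment in which a cell breaks down proteins, sugar chains, lipids and whatever it has engulfed. Its enzymes (cathepsins for proteins, glycosidases for sugar chains, a lipase for cholesterol esters) work at low pH, which a vacuolar proton pump maintains by driving protons across the membrane at the cost of ATP. Microglia, the resident macrophages of the brain, depend on it to clear synapses, myelin and dying cells, and several of these genes are known from inherited lysosomal storage diseases that affect the brain. TFEB, TFE3 and MITF are related transcription factors that bind E-box sequences in the promoters of many lysosomal genes.

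All samples came from male C57BL/6 mice. The RNA libraries, 2 per group and 10 in all, were of adult microglia from untreated wild-type mice aged 90 days, and of Ki67-negative and Ki67-positive microglia from mice with the Ki67-rfp genotype, a fluorescent reporter of the cell cycle protein Ki67. These reporter mice were either 8 days old and untreated (postnatal day 8, PND8) or 75 days old and in repopulation: they had eaten a diet with PLX5622, a CSF1 receptor inhibitor that depletes microglia, for 17 days from an age of 55 days, and had then recovered for 3 days. H3K27ac, an acetylated histone found at promoters and enhancers in use, was mapped in 12 libraries, 2 in each of 6 groups labelled wild type and stained for Ki67. These were untreated adults of 60 and 65 days, both Ki67 fractions of PND8 mice, both Ki67 fractions of 90-day-old mice after 4 weeks of cuprizone, a toxin that causes loss of myelin, and the Ki67-positive fraction in repopulation, here from mice of 90 days whose PLX5622 diet had begun at 70 days. H3K4me3, a promoter mark, was mapped in adults of 75 days. Rpb2, of RNA polymerase II, was mapped in adults of 60 and 65 days and in PND8 Ki67-positive cells. The titles of both name C57. ATAC-seq, for accessible DNA, used adults of 80 days and Ki67-positive cells at PND8 and in repopulation. That repopulation library was from 75 days, with PLX5622 from 55 days. The Ki67-positive ATAC titles name Ki67-rfp, while the genotype label says wild type. The labels call the adults untreated, while adult file headers carry the word vehicle. The age label and the file header of the H3K27ac repopulation libraries also differ. The adult RNA group differed from the 4 other RNA groups in genotype as well as in age or treatment, and it also had a numeric code of its own in the file headers, so in each comparison with adult these cannot be told apart.

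RNA libraries held 6865903 to 10287876 counts over genes, and the 39 genes took 1.16% to 1.38% of them. Values per library are in CPM, counts scaled to a common library total after scaling by TMM factors, so a change is relative to the other genes of a library. A gene is called changed where edgeR's quasi-likelihood test gave a Benjamini-Hochberg adjusted p under 0.05 over all 12230 genes. The 9 microglial markers were all above 0 in every group, with summed levels of 6772 to 8683 CPM. Markers of other cells moved with the groups. A list of 8 genes of border macrophages summed to 65.4 to 81.3 CPM in adults, 609.9 to 860.6 at PND8 and 26.7 to 43.0 in repopulation. Most of this was Mrc1, and the other 7 summed to 15.6 to 28.6 CPM in adults, 63.0 to 90.3 in PND8 Ki67-negative cells, 26.99 to 35.1 in PND8 Ki67-positive cells and 1.07 to 3.64 in repopulation, where Lyve1 was at 0 in all 4 libraries. The 9 monocyte or neutrophil markers summed to 229.4 and 69.0 CPM in adult replicates 1 and 2 and to at most 9.26 elsewhere. In these bulk samples fewer cells of a type and less RNA per cell cannot be told apart.

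The lysosomal list did not move as one block. Against adult, 13 members were higher and 6 lower in PND8 Ki67-positive cells, where 25.1% of all genes tested were higher and 24.3% lower. In PND8 Ki67-negative cells 15 were higher and 6 lower (all genes: 25.4% and 21.4%). In repopulation 16 were higher and 4 lower in Ki67-positive cells (all genes: 23.9% and 21.0%), and 18 were higher and 3 lower in Ki67-negative cells (all genes: 21.5% and 17.6%; with limma on log2 TPM the members' counts there were 16 and 6). The members' median log2 fold changes in these 4 comparisons were 0.11, 0.11, 0.12 and 0.18, beside 0.00, 0.03, -0.01 and -0.01 for all genes tested. The 4 comparisons share the same 2 adult libraries. When each of the 10 RNA libraries was left out in turn, 11 of the 19, 13 of the 21, 11 of the 20 and 7 of the 21 calls passed every time. A call against adult or between contexts given below with no remark is one of these, and for the others the libraries among the 4 compared without which it was lost are named, with the adjusted p then reached.

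The members called higher were not the same at PND8 and in repopulation. Npc2, Gusb, Atp6v0d1, Atp6v1a and Atp6v1b2 were higher than adult in all 4 groups, and Mitf was lower in all 4. Of these only Gusb kept all 4 calls with each library left out; Npc2 kept 3 (not PND8 Ki67-positive), Atp6v1b2 and Mitf 3 each, Atp6v0d1 the 2 at PND8 and Atp6v1a 1. Ctsb, Ctsl, Lamp1, Cd63, Lipa, Atp6v0d2 and Atp6ap2 were higher in both PND8 groups and called higher in neither repopulation group. Both calls were kept by Ctsl, Cd63 and Atp6v0d2, 1 by Ctsb and none by Lamp1, Lipa and Atp6ap2. Between the contexts directly, all of these but Lamp1 and Lipa were lower in repopulation in both Ki67 fractions. Another 10 members, Ctsc, Ctsh, Ctsk, Ctsz, Cd68, Glb1, Hexa, Naglu, Psap and Grn, were higher in both repopulation groups and called higher in neither PND8 group. Both calls were kept by Ctsh, Glb1 and Naglu and 1 by Ctsc, while Ctsk, Ctsz, Cd68, Hexa, Psap and Grn lost both. Between the contexts directly, Cd68 and Grn were called in neither fraction and Ctsz in Ki67-negative cells alone. Ctsh, Glb1 and Cd63, and in Ki67-negative cells also Ctsc, were called in opposite directions at PND8 and in repopulation. Ctsa, Ctsd, Lamp2, Scarb2, Atp6v1h and Atp6ap1 were called in none of the 4. The share of all tested genes with each of these combined patterns was not counted. The patterns therefore describe single members, and whether the list differs in them from other genes was not tested. The border macrophage markers were highest at PND8 and lowest in repopulation, and the monocyte or neutrophil markers highest in adults, in the same libraries; the part of such cells in these differences was not tested.

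**Figure D1:**
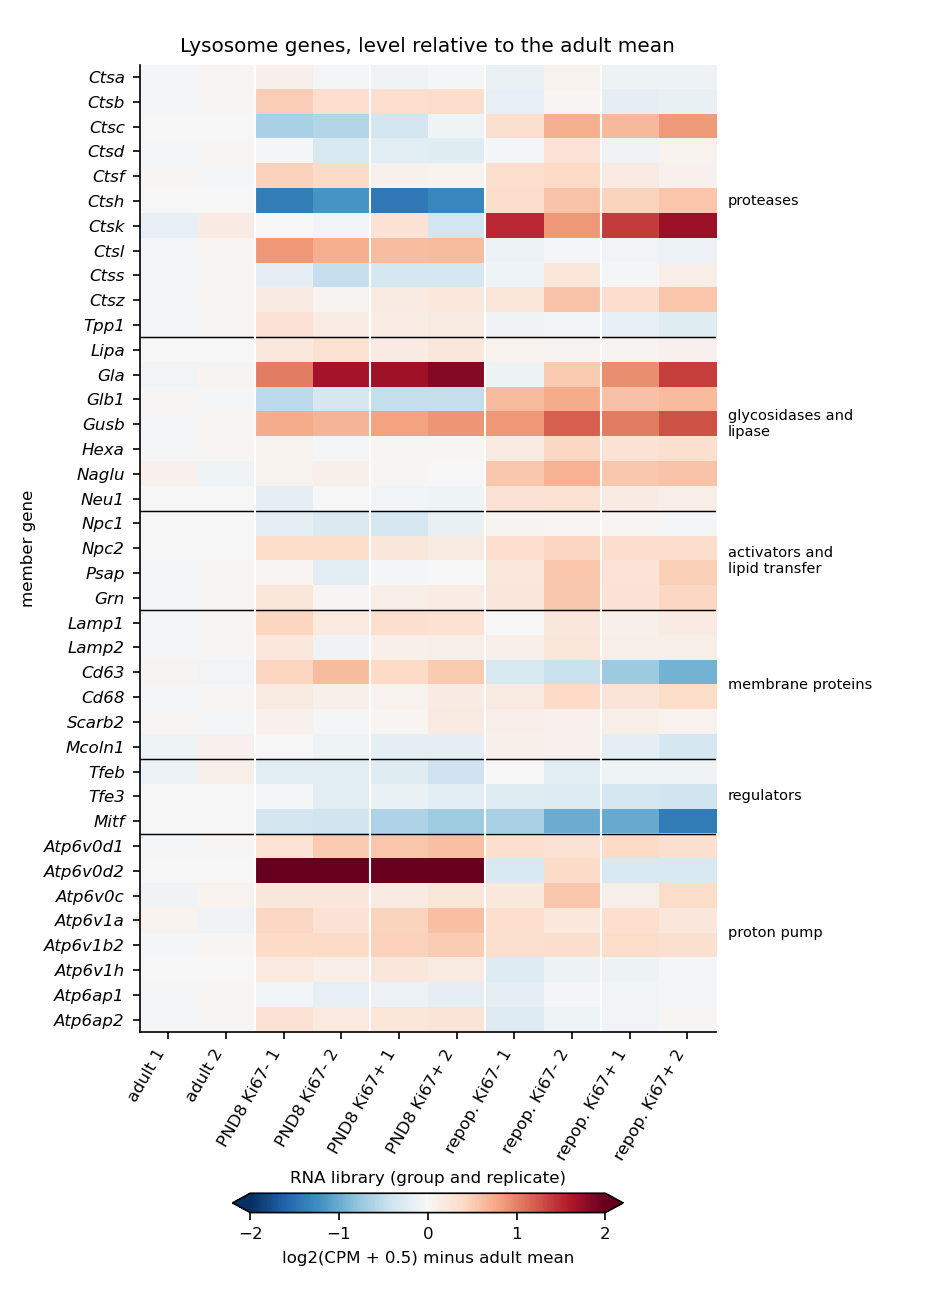
Level of each of the 39 members (rows, grouped by role) in each of the 10 RNA libraries (columns), as log2(CPM + 0.5) minus the mean of the adult libraries; red is above and blue below that mean, and the scale ends at 2 and -2. Ctsh is blue in the 4 PND8 libraries and red in the 4 repopulation libraries, Cd63 shows the reverse, and Mitf is blue in all 8.

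A direct comparison of repopulation with PND8 does not use the adult libraries. Repopulating Ki67-positive cells had 9 members higher and 7 lower than PND8 Ki67-positive cells, where 16.7% of all genes were higher and 14.2% lower. For Ki67-negative cells 12 were higher and 9 lower (all genes: 18.0% and 18.6%). Which direction held more calls depended on the scaling. With library sizes alone in place of TMM factors the first comparison had 8 higher and 13 lower members and the second 9 higher and 12 lower. In Ki67-positive cells they were 8 and 14 with limma on log2 TPM and 7 and 9 with the header code as a covariate. The members' medians were 0.03 and 0.09, beside 0.00 and -0.04 for all genes. Within the 1 header code that both contexts share, the median differences of the members were 0.02 and 0.04, from 1 library against 1. With each library left out in turn, 9 of the 16 and 10 of the 21 calls passed every time. The 8 proton pump members held 0 higher calls in either comparison and 2 and 3 lower ones. Of the lower calls Atp6v0d2 kept both and Atp6ap2 the one in Ki67-negative cells.

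Of the counts against adult, 12 members were called in PND8 Ki67-positive cells when either adult library was left out, and in PND8 Ki67-negative cells 14 without adult replicate 1 and 13 without adult replicate 2. In repopulating Ki67-positive cells 13 were called without adult replicate 1 and 12 without Ki67-positive replicate 2. In repopulating Ki67-negative cells 8 were called without adult replicate 1, 11 without adult replicate 2 and 9 without Ki67-negative replicate 2. In the direct Ki67-positive comparison the 16 calls became 10 without either PND8 library and 9 without repopulation replicate 2, and in the Ki67-negative one the 21 became 14 without repopulation replicate 2.

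Among the proteases, Ctsh showed the clearest contrast. Ctsh encodes cathepsin H, an aminopeptidase (chr9:90054267-90076095). It was at 236 and 237 CPM in adults, 90.2 and 104 (Ki67-negative) and 87.2 and 95.4 (Ki67-positive) at PND8, and 301 and 350 (Ki67-negative) and 320.4 and 348 (Ki67-positive) in repopulation. The 4 PND8 libraries all lay below the adult pair and the 4 repopulation libraries all lay above it. Against adult the level was 2.59-fold lower in PND8 Ki67-positive cells (log2 -1.37 ± 0.102 SE, adjusted p = 1.81e-07) and 1.41-fold higher in repopulating Ki67-positive cells (log2 0.50 ± 0.0975, adjusted p = 0.00104). Between the contexts the difference was 3.66-fold in Ki67-positive cells (adjusted p = 2.15e-08) and 3.34-fold in Ki67-negative cells (adjusted p = 3.15e-08), and within the shared header code it was 1.74 and 1.53 on the log2 scale, from 1 library against 1.

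Ctsc, cathepsin C, which activates the serine proteases of leukocyte granules, followed a similar order. Its level was 323 and 328 CPM in adults, 207 and 216 (Ki67-negative) and 253 and 307 (Ki67-positive) at PND8, and 408 and 535 (Ki67-negative) and 509 and 586 (Ki67-positive) in repopulation. The PND8 libraries lay below adult and the repopulation libraries above, without overlap. The fall at PND8 passed the test in Ki67-negative cells (log2 -0.62 ± 0.127, adjusted p = 0.0014) and not in Ki67-positive cells (log2 -0.22, adjusted p = 0.166). The repopulation levels were 2.22-fold the PND8 levels in Ki67-negative and 1.96-fold in Ki67-positive cells (adjusted p = 1.38e-05 and 6.84e-05). The Ki67-negative call against adult in repopulation was lost without repopulation replicate 2 (adjusted p = 0.0723).

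Ctsl and Ctsb, the broad endopeptidases cathepsin L and cathepsin B, were higher than adult at PND8 and lower in repopulation than at PND8. Ctsl was at 256 and 272 CPM in adults, 484 and 438 (Ki67-negative) and 407 and 410.3 (Ki67-positive) at PND8, and 244 and 256 (Ki67-negative) and 255 and 244 (Ki67-positive) in repopulation. It was 1.74-fold and 1.55-fold the adult level in the PND8 groups (adjusted p = 4.54e-06 and 3.22e-05), while in repopulation its log2 differences from adult were -0.08 and -0.08 and did not pass. Ctsb was at 886 and 911 CPM in adults, 1259 and 1140 (Ki67-negative) and 1132 and 1142 (Ki67-positive) at PND8, and 798 and 924 (Ki67-negative) and 791 and 811 (Ki67-positive) in repopulation. Its PND8 levels were 1.33-fold and 1.26-fold the adult level (adjusted p = 0.00229 and 0.00754), the second lost without adult replicate 1 (adjusted p = 0.064), and in repopulation it was 1.39-fold and 1.42-fold lower than at PND8 (adjusted p = 0.00126 and 0.001). The first of these did not pass with only the 2 groups compared in the fit.

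Ctss, cathepsin S, which macrophages use to process antigen, was lower at PND8 than in adults. It stood at 520.5 and 536 CPM in adults, 463 and 384 (Ki67-negative) and 416 and 416 (Ki67-positive) at PND8, and 498 and 622 (Ki67-negative) and 519 and 576 (Ki67-positive) in repopulation. All 4 PND8 libraries were below both adult libraries, by 0.34 (Ki67-positive) and 0.32 (Ki67-negative) on the log2 scale (adjusted p = 0.0224 and 0.034), whereas the repopulation libraries spanned the adult values and were above PND8 by 0.40 and 0.40 (adjusted p = 0.0173 and 0.0139). The PND8 calls of Ctss were lost without either adult library, without either Ki67-positive library or without Ki67-negative replicate 2 (adjusted p = 0.0737 to 0.109 in Ki67-positive and 0.0972 to 0.142 in Ki67-negative cells). Those between contexts were lost without either PND8 Ki67-positive library or without replicate 2 of PND8 Ki67-negative or of either repopulation fraction (adjusted p = 0.0998 to 0.122 and 0.0562 to 0.146). Ctsk, cathepsin K, best known from bone-resorbing osteoclasts, lies 17399 bases from Ctss on chromosome 3 and was near the bottom of the measured range. Its levels were 1.16 and 1.59 CPM in adults, 1.36 and 1.28 (Ki67-negative) and 1.76 and 0.925 (Ki67-positive) at PND8, and 4.79 and 2.90 (Ki67-negative) and 4.40 and 5.61 (Ki67-positive) in repopulation. The repopulation libraries were the 4 highest, 3.61-fold above adult in Ki67-positive cells (log2 SE 0.465, adjusted p = 0.00547) and 2.84-fold in Ki67-negative cells (adjusted p = 0.0221). The Ki67-positive call of Ctsk was lost without adult replicate 1 or repopulation replicate 2 (adjusted p = 0.056), and the Ki67-negative one without either adult library or repopulation replicate 1 (adjusted p = 0.0651 to 0.222).

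Ctsd, cathepsin D, the main aspartic protease of the lysosome and the most abundant member per transcript length (879.3 TPM in adults on average, TPM being a level scaled by transcript length), was called in no comparison. It was at 1095 and 1130 CPM in adults, 1096 and 893 (Ki67-negative) and 954 and 938 (Ki67-positive) at PND8 and 1083 and 1340 (Ki67-negative) and 1065 and 1163 (Ki67-positive) in repopulation. The counts were made with at most 3 tags per position, and Ctsd held 4.24 to 5.46 tags per base of its exons, second among all 20999 genes, of which the highest reached 6.35. Ctss, Psap and Grn reached 3.55, 3.51 and 3.39 tags per base. Lamp1, Cd68, Ctsz, Ctsb and Hexa reached 2.82, 2.79, 2.77, 2.63 and 2.19. Of all RNA libraries, replicate 2 of the repopulating Ki67-negative and Ki67-positive cells held the fewest counts, 6865903 and 7137499. How far the limit, alone or together with library size, affected differences in these members was not tested.

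Of the remaining proteases, Ctsz (cathepsin Z) was higher in repopulation, 1.37-fold in Ki67-positive and 1.33-fold in Ki67-negative cells (adjusted p = 0.00394 and 0.0092). Both calls were lost without replicate 2 of the fraction concerned, and the Ki67-negative one also without adult replicate 1 (adjusted p = 0.0569 and 0.0779 to 0.126). Tpp1, tripeptidyl peptidase, was lower in repopulation than at PND8 by 0.37 on the log2 scale in Ki67-positive cells (adjusted p = 0.00344), with 516 and 526 CPM against 416 and 389.9. The adult pair was at 456 and 471 CPM. Ctsa, which protects glycosidases as well as cutting peptides, was between 457.5 and 535.1 CPM in all 10 libraries.

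**Figure D2:**
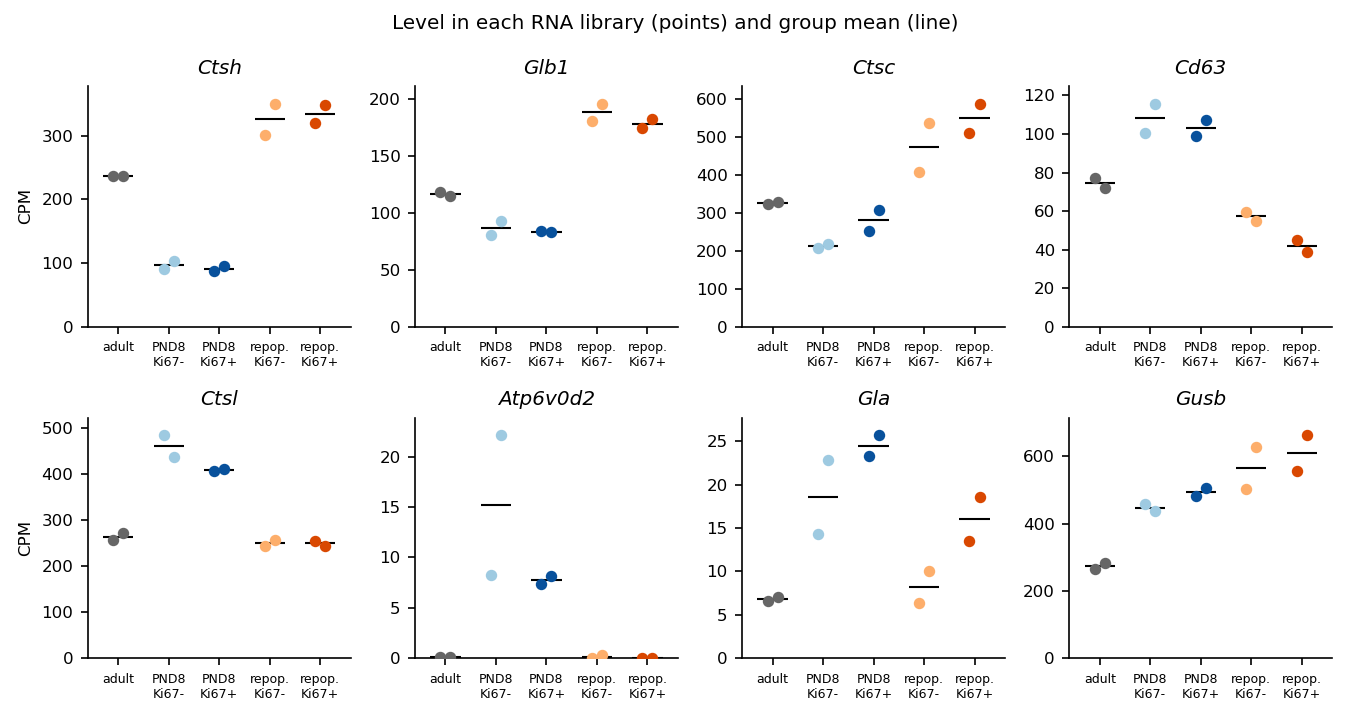
Level of 8 members in CPM (vertical axis, from 0) in the 5 RNA groups (horizontal axis); each point is 1 library and each line the mean of 2. Ctsh, Glb1 and Ctsc are lowest at PND8 and highest in repopulation, Cd63, Ctsl and Atp6v0d2 are highest at PND8, and Gla and Gusb are lowest in adults.

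Of the 7 genes in the group of glycosidases and lipase, 5 were higher than adult in each repopulation group and 0 were lower, where 23.9% (Ki67-positive) and 21.5% (Ki67-negative) of all genes were higher. The shares of all genes lower there were 21.0% and 17.6%. At PND8 3 of the 7 were higher and 1 lower in each Ki67 group. Of all genes 25.1% were higher and 24.3% lower in PND8 Ki67-positive cells, and 25.4% and 21.4% in PND8 Ki67-negative cells. With each library left out in turn, 4 of the 5 higher calls remained in repopulating Ki67-positive cells (all but Hexa), 3 of 5 in repopulating Ki67-negative cells (all but Hexa and Neu1) and 2 of 3 in each PND8 group (all but Lipa). Glb1, beta-galactosidase, which removes galactose from gangliosides (chr9:114401078-114474379), was at 118 and 115 CPM in adults, 80.8 and 92.9 (Ki67-negative) and 83.9 and 83.5 (Ki67-positive) at PND8, and 181 and 196 (Ki67-negative) and 175 and 182 (Ki67-positive) in repopulation. The PND8 libraries lay below the adult pair and the repopulation libraries above it. The repopulation level was 2.13-fold the PND8 level in Ki67-positive cells (log2 1.09 ± 0.0913 SE, adjusted p = 1.09e-06) and 2.16-fold in Ki67-negative cells (log2 1.11 ± 0.0908, adjusted p = 8.15e-07).

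Gusb, beta-glucuronidase, was lowest in the adult group. It was at 266 and 283 CPM in adults, 457 and 438 (Ki67-negative) and 481 and 505 (Ki67-positive) at PND8, and 502 and 628 (Ki67-negative) and 555 and 662 (Ki67-positive) in repopulation. All 8 reporter libraries lay above both adult libraries, by 1.63-fold to 2.22-fold (adjusted p between 3.07e-06 and 0.000217). Naglu, which trims heparan sulfate, was higher in repopulation alone. Its levels were 227 and 202 CPM in adults, 224 and 230.2 (Ki67-negative) and 218 and 216 (Ki67-positive) at PND8 and 313 and 349 (Ki67-negative) and 313 and 319 (Ki67-positive) in repopulation, so that the 4 repopulation libraries were above the other 6. Against PND8 this was 1.46-fold in Ki67-negative and 1.45-fold in Ki67-positive cells (adjusted p = 0.000296 and 0.000348).

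Gla, alpha-galactosidase A, the enzyme of Fabry disease, was a low-level gene with large differences. It was at 6.59 and 7.09 CPM in adults, 14.4 and 22.8 (Ki67-negative) and 23.2 and 25.7 (Ki67-positive) at PND8, and 6.35 and 10.1 (Ki67-negative) and 13.5 and 18.6 (Ki67-positive) in repopulation. The repopulating Ki67-negative pair overlapped the adult range and the other 3 groups lay above it, by 3.57-fold in PND8 Ki67-positive cells (adjusted p = 0.000107), 2.74-fold in PND8 Ki67-negative cells (adjusted p = 0.00084) and 2.33-fold in repopulating Ki67-positive cells (adjusted p = 0.00332). Hexa, the alpha subunit of hexosaminidase, which degrades GM2 ganglioside, was at 394 and 412 CPM in adults, 423 and 395 (Ki67-negative) and 408 and 409.6 (Ki67-positive) at PND8 and 451 and 538 (Ki67-negative) and 492 and 506 (Ki67-positive) in repopulation. It was 1.23-fold and 1.24-fold above adult in repopulating Ki67-negative and Ki67-positive cells (adjusted p = 0.021 and 0.0141). The calls of Hexa were lost without either adult library, without Ki67-negative replicate 2 or without either Ki67-positive library (adjusted p = 0.0725 to 0.225 and 0.0518 to 0.108). Lipa, acid lipase, was 1.20-fold and 1.15-fold above adult at PND8 in Ki67-negative and Ki67-positive cells (adjusted p = 0.0119 and 0.0424). These calls were lost without either adult library, without Ki67-negative replicate 2 or without either Ki67-positive library (adjusted p = 0.0666 to 0.0827 and 0.0763 to 0.198), and the Ki67-positive one also in DESeq2. Neu1, a sialidase, was 1.31-fold higher in repopulating than in PND8 Ki67-negative cells (adjusted p = 0.00456), and its call against adult there (1.23-fold, adjusted p = 0.0186) was lost without any 1 of the 4 libraries (adjusted p = 0.0634 to 0.0994).

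Of the 4 activator and lipid transfer proteins Psap, Grn and Npc2 were called higher than adult in both repopulation groups. The shares of all genes higher there were 23.9% (Ki67-positive) and 21.5% (Ki67-negative). With each library left out in turn only Npc2 kept its calls in both groups. Psap, the precursor of the saposins that present lipids to their enzymes, was at 825 and 847 CPM in adults, 861 and 721 (Ki67-negative) and 818 and 836 (Ki67-positive) at PND8, and 964 and 1225 (Ki67-negative) and 1014 and 1166 (Ki67-positive) in repopulation. The 4 repopulation libraries lay above the other 6, by 1.30-fold against adult (Ki67-positive, adjusted p = 0.0194) and 1.32-fold against PND8 (adjusted p = 0.0222). The call against adult was lost without either adult library or repopulation replicate 2 (adjusted p = 0.0748 to 0.163), and that against PND8 without either PND8 library, without repopulation replicate 2 (adjusted p = 0.102 to 0.167) or with the header code as a covariate. Grn, progranulin, was 1.28-fold and 1.31-fold above adult in repopulating Ki67-positive and Ki67-negative cells (adjusted p = 0.0186 and 0.0124), calls lost without either adult library or replicate 2 of the fraction concerned (adjusted p = 0.0641 to 0.131 and 0.0531 to 0.149). Npc2, which hands cholesterol to the membrane protein Npc1, was at 285 and 286 CPM in adults, 370 and 370.3 (Ki67-negative) and 334 and 324 (Ki67-positive) at PND8 and 362 and 387 (Ki67-negative) and 363 and 364 (Ki67-positive) in repopulation, above adult in all 8 reporter libraries. Npc1 itself was at 419.9 and 426 CPM in adults, 372 and 347 (Ki67-negative) and 335 and 383 (Ki67-positive) at PND8 and 442 and 433 (Ki67-negative) and 436 and 412 (Ki67-positive) in repopulation. Npc1 was lower at PND8 by 0.24 and 0.24 on the log2 scale in Ki67-positive and Ki67-negative cells (adjusted p = 0.034 and 0.0365). The partners were thus called in opposite directions there. The Npc2 call in PND8 Ki67-positive cells was lost without either adult library or either Ki67-positive library. It was also lost without the filter on low counts. These Npc1 calls were lost without either adult library, without Ki67-positive replicate 1 or without Ki67-negative replicate 2 (adjusted p = 0.112 to 0.319 and 0.0728 to 0.151).

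Among membrane proteins Cd63 stood apart. Cd63, a tetraspanin of late endosomes and lysosomes that also marks exosomes (chr10:128909345-128912818), was at 77.4 and 72.2 CPM in adults, 100.6 and 116 (Ki67-negative) and 99.02 and 107 (Ki67-positive) at PND8, and 59.7 and 54.7 (Ki67-negative) and 45.0 and 38.6 (Ki67-positive) in repopulation. The order was the reverse of that of Ctsh, with PND8 above adult, repopulation below, and no overlap of PND8, adult and repopulation libraries. In Ki67-positive cells Cd63 was 1.38-fold higher than adult at PND8 (adjusted p = 0.00351), 1.79-fold lower than adult in repopulation (adjusted p = 6.85e-05) and 2.46-fold lower in repopulation than at PND8 (log2 -1.30 ± 0.115 SE, adjusted p = 2.06e-06). In Ki67-negative cells the last difference was 1.89-fold (log2 -0.92 ± 0.112, adjusted p = 3.61e-05). Against adult it was lower in repopulating Ki67-negative cells (log2 -0.38, adjusted p = 0.0168), a call lost without adult replicate 1 or repopulation replicate 2 (adjusted p = 0.117 to 0.12).

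Lamp1, the major glycoprotein of the lysosomal membrane, was at 493 and 514 CPM in adults, 674 and 576 (Ki67-negative) and 636 and 621 (Ki67-positive) at PND8 and 503 and 586 (Ki67-negative) and 537 and 564 (Ki67-positive) in repopulation. It was 1.25-fold and 1.24-fold above adult in PND8 Ki67-positive and Ki67-negative cells (adjusted p = 0.0149 and 0.0186). Both calls were lost without either adult library or replicate 1 of the PND8 fraction concerned (adjusted p = 0.0543 to 0.104 and 0.0671 to 0.124). Its relative Lamp2 was between 443.2 and 552.4 CPM in all 10 libraries and was not called. Cd68, a macrophage lysosomal glycoprotein often used as a marker of phagocytic activity, was 1.24-fold and 1.22-fold above adult in repopulating Ki67-positive and Ki67-negative cells (adjusted p = 0.0132 and 0.0223), and both calls were lost without either adult library or replicate 2 of that fraction (adjusted p = 0.058 to 0.11 and 0.0865 to 0.215). Mcoln1, the calcium channel of the lysosomal membrane, was at 109 and 122 CPM in adults, 115 and 109 (Ki67-negative) and 102 and 100.7 (Ki67-positive) at PND8, 124 and 122 in repopulating Ki67-negative and 102 and 90.1 in repopulating Ki67-positive cells. The last of these groups passed against adult (log2 -0.26, adjusted p = 0.0364). It did not pass in DESeq2, without the filter on low counts, or without adult replicate 2 or Ki67-positive replicate 2 (edgeR adjusted p = 0.279 to 0.29).

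All 3 regulators had negative differences from adult in all 4 groups, and those that passed the test were lower. Mitf was at 89.4 and 89.8 CPM in adults, 69.2 and 67.8 (Ki67-negative) and 58.3 and 54.8 (Ki67-positive) at PND8 and 56.9 and 44.6 (Ki67-negative) and 44.2 and 33.7 (Ki67-positive) in repopulation. Every reporter library lay below the adult pair, most of all in repopulating Ki67-positive cells (2.29-fold lower, log2 -1.20 ± 0.140 SE, adjusted p = 1.47e-05). It was also lower in repopulation than at PND8, by 0.53 in Ki67-positive and 0.42 in Ki67-negative cells on the log2 scale (adjusted p = 0.0116 and 0.0277). Its weakest calls were lost when single libraries were left out: that against adult in PND8 Ki67-negative cells without any 1 of the 4 libraries (adjusted p = 0.0556 to 0.11), and those between contexts without PND8 Ki67-positive replicate 1, either PND8 Ki67-negative library or replicate 2 of either repopulation fraction (adjusted p = 0.0662 to 0.126 and 0.0649 to 0.219). The Ki67-negative call between contexts was also lost without either PND8 Ki67-positive library and with the header code as a covariate. Tfe3 was at 296 and 298 CPM in adults, 294 and 257 (Ki67-negative) and 272 and 254 (Ki67-positive) at PND8 and 252 and 247 (Ki67-negative) and 234 and 225 (Ki67-positive) in repopulation, and was lower in both repopulation groups (adjusted p = 0.0309 and 0.0029). The Ki67-negative call of Tfe3 was lost without any 1 of the 4 libraries compared (adjusted p = 0.084 to 0.136). Tfeb was at 83.0 and 97.4 CPM in adults, 77.7 and 77.2 (Ki67-negative) and 75.9 and 67.2 (Ki67-positive) at PND8 and 89.5 and 76.6 (Ki67-negative) and 84.8 and 85.1 (Ki67-positive) in repopulation. It was called lower in PND8 Ki67-positive cells (log2 -0.33, adjusted p = 0.0246). The other 3 groups had log2 values of -0.22, -0.12 and -0.09, and the direct comparisons of repopulation with PND8 did not pass for Tfeb. Its 1 call was lost without adult replicate 2 or Ki67-positive replicate 2 (adjusted p = 0.197 to 0.246) and with library sizes alone in place of TMM factors. These are RNA levels; the 3 proteins are known to be controlled largely by phosphorylation and entry into the nucleus, which these data do not measure.

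Of the 8 proton pump genes 5 were higher than adult in each PND8 group, 3 in repopulating Ki67-positive and 4 in repopulating Ki67-negative cells, and 0 were lower in any of the 4. The shares of all genes called higher were 25.1%, 25.4%, 23.9% and 21.5% in these comparisons. With each library left out in turn 4 (Atp6v1a, Atp6v1b2, Atp6v0d1 and Atp6v0d2), 3 (the same without Atp6v1a), 1 (Atp6v1b2) and 0 of the higher calls remained. Atp6v1a, the catalytic subunit that hydrolyses ATP, was at 102 and 92.6 CPM in adults, 129.6 and 119 (Ki67-negative) and 132 and 148 (Ki67-positive) at PND8 and 123 and 112 (Ki67-negative) and 123 and 114 (Ki67-positive) in repopulation. Atp6v0d1, a subunit of the central stalk, was at 104 and 109 CPM in adults, 129 and 154 (Ki67-negative) and 156 and 161 (Ki67-positive) at PND8 and 134 and 131 (Ki67-negative) and 140.2 and 133 (Ki67-positive) in repopulation. Both were above adult in all 8 reporter libraries, with the largest differences in PND8 Ki67-positive cells: 1.44-fold (adjusted p = 0.000592) and 1.49-fold (adjusted p = 0.000226). The call of Atp6v1a in PND8 Ki67-negative cells was lost without adult replicate 2 (adjusted p = 0.106). In repopulation its calls were lost without any 1 of the 4 libraries compared (adjusted p = 0.0514 to 0.214 for Ki67-positive and 0.0535 to 0.251 for Ki67-negative cells) and with limma on log2 TPM. Those of Atp6v0d1 in repopulation were lost without adult replicate 1 or Ki67-positive replicate 1 (adjusted p = 0.0716 to 0.0741) and, in Ki67-negative cells, without any 1 of the 4 libraries (adjusted p = 0.0596 to 0.129). Atp6v1b2, the regulatory partner of Atp6v1a, was 1.26-fold to 1.40-fold above adult in the 4 groups, with the repopulating Ki67-negative call lost without adult replicate 1 (adjusted p = 0.0513). Atp6ap2, an accessory protein also known as the prorenin receptor, was 1.19-fold above adult in both PND8 groups and lower in repopulation than at PND8 by 0.27 and 0.42 on the log2 scale in Ki67-positive and Ki67-negative cells (adjusted p = 0.0284 and 0.0018). Only the last of these 4 calls held: the PND8 calls were lost without either adult library, either Ki67-positive library or Ki67-negative replicate 1 (adjusted p = 0.0708 to 0.137 and 0.0817 to 0.152), and the Ki67-positive one between contexts without any 1 of the 4 libraries (adjusted p = 0.0699 to 0.14). Atp6v0c, which forms the proton-carrying ring, was called higher in repopulating Ki67-negative cells alone among the 4 groups (log2 0.39, adjusted p = 0.0351), a call lost without either adult library or repopulation replicate 2 (adjusted p = 0.075 to 0.318). Atp6v1h was lower in repopulating than in PND8 Ki67-negative cells (log2 -0.34, adjusted p = 0.0268), a call lost in DESeq2 and without either PND8 library or repopulation replicate 1 (adjusted p = 0.054 to 0.199).

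Atp6v0d2, the tissue-restricted alternative to Atp6v0d1 that is prominent in osteoclasts and some macrophages (chr4:19876838-19922566), was above the floor at PND8 alone. Its raw counts were 1 and 1 in adults, 67 and 241 (Ki67-negative) and 67 and 71 (Ki67-positive) at PND8, and 0 and 2 (Ki67-negative) and 0 and 0 (Ki67-positive) in repopulation. In CPM the PND8 libraries were at 8.29 and 22.1 (Ki67-negative) and 7.38 and 8.21 (Ki67-positive), and the other 6 were at or under the floor of 3 counts in a library, 0.367 CPM in the adult group. Against that floor the PND8 level was at least 21.3-fold higher than adult in Ki67-positive and at least 41.5-fold higher in Ki67-negative cells (adjusted p = 9.37e-05 and 1.9e-05). Repopulation was at least 18.0-fold lower than PND8 in Ki67-positive and at least 33.2-fold lower in Ki67-negative cells (adjusted p = 0.000123 and 3.28e-05). Each bound uses the mean of the PND8 pair, and the Ki67-negative mean rests largely on replicate 2 at 22.1 CPM. The sum of the border macrophage markers without Mrc1 was also highest in the PND8 Ki67-negative group, and its higher library there, replicate 2 at 90.3 CPM, was the one with 241 Atp6v0d2 counts. Its part in the result was not tested.

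**Figure D3:**
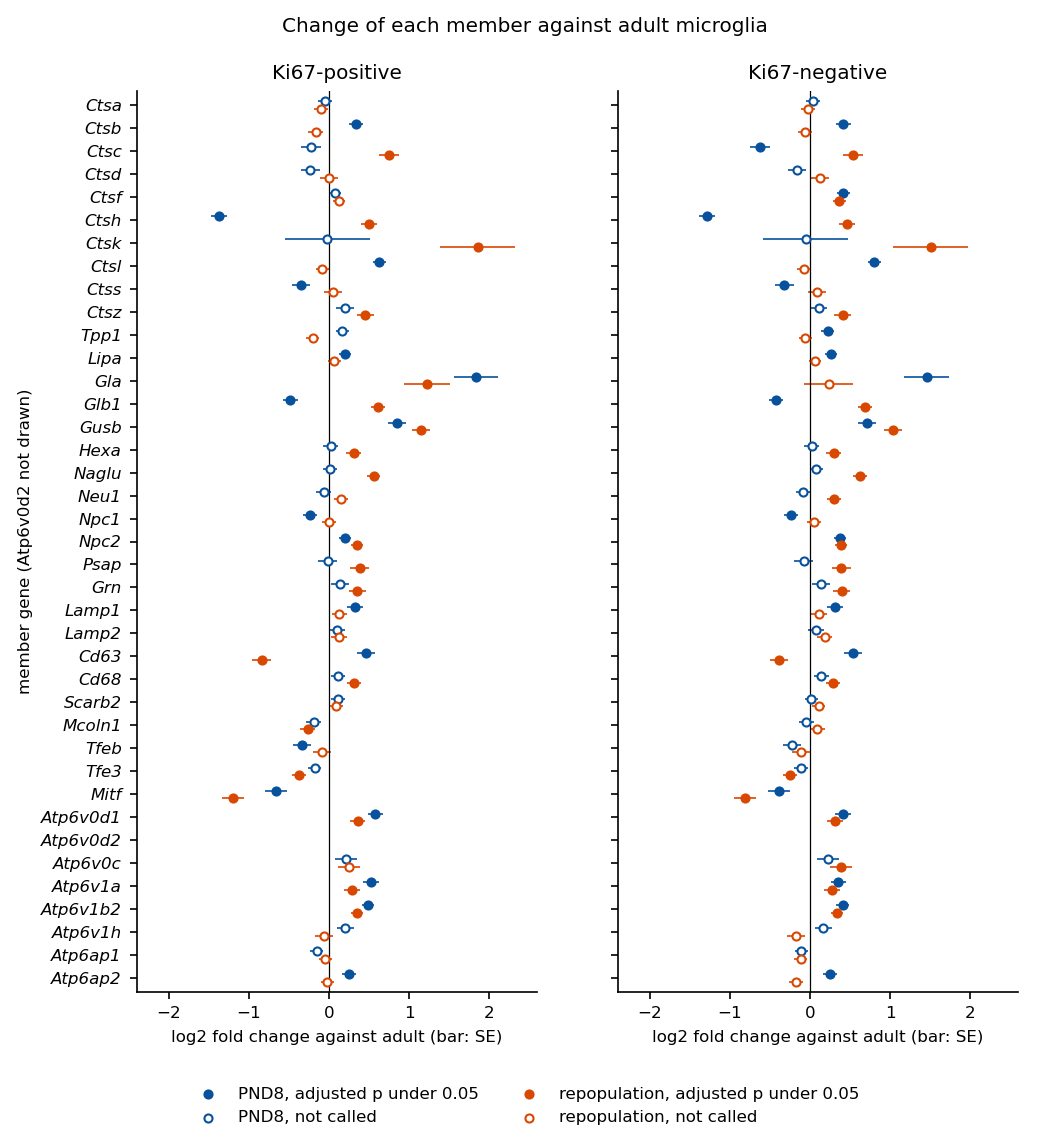
Log2 fold change against adult (horizontal axis, bars are standard errors) for 38 members in Ki67-positive (left) and Ki67-negative (right) cells, PND8 in blue and repopulation in orange; filled points passed the test and Atp6v0d2 is left out because its fold against adult is a lower bound. Blue and orange points of Ctsh and Glb1 lie left and right of 0, those of Cd63 right and left, and both colours of Gusb, Atp6v0d1, Atp6v1a and Atp6v1b2 lie to the right.

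Between Ki67-positive and Ki67-negative cells of one context few of these genes were called. At PND8 0 members were higher and 1 was lower in Ki67-positive cells, where 2.75% of all genes were higher and 3.15% lower. The member was Ctsf, cathepsin F, at 249 and 248 CPM in Ki67-positive against 323 and 305 in Ki67-negative cells (log2 -0.34 ± 0.0760 SE, adjusted p = 0.0176), and the adult pair was at 239 and 232 CPM. In repopulation Ctsf was at 262 and 251 against 298 and 309 CPM (log2 -0.24, adjusted p = 0.124), and in both contexts the 2 Ki67-positive libraries lay below the 2 Ki67-negative ones. Against adult it was called higher in Ki67-negative cells, at PND8 (log2 0.42, adjusted p = 0.000623) and in repopulation (log2 0.37, adjusted p = 0.00204), and not called in Ki67-positive cells (log2 0.08 and 0.12). Within the 2 header codes, each with 1 library against 1, the PND8 difference of Ctsf was -0.38 and -0.30. With the header code as a covariate Ctsc was called as well, at 0.29 and 0.50 within codes. The PND8 call was lost without PND8 Ki67-positive replicate 1 or 2 and without repopulating Ki67-positive replicate 1, leaving 0 calls each time, and became 2 calls without PND8 Ki67-negative replicate 1 or either repopulating Ki67-negative library.

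In repopulation 0 members passed in edgeR, where 1.87% of all genes were higher and 0.867% lower in Ki67-positive cells, while 5 had an unadjusted p under 0.05. The lowest adjusted p was that of Cd63, 0.0612, at 45.0 and 38.6 CPM in Ki67-positive against 59.7 and 54.7 in Ki67-negative cells (log2 -0.45 ± 0.118). DESeq2 called 1 member, Cd63. With the header code as a covariate, each code holding 1 library of either fraction, 4 members passed, Cd63, Mcoln1, Mitf and Gla. Within the 2 codes the differences were -0.41 and -0.50 for Cd63, -0.28 and -0.44 for Mcoln1, -0.36 and -0.40 for Mitf and 1.03 and 0.85 for Gla. Without PND8 Ki67-negative replicate 1 or 2, edgeR called 4 members. Gla was at 13.5 and 18.6 against 6.35 and 10.1 CPM (log2 0.99 ± 0.280, adjusted p = 0.0886). The members' median difference was -0.03 at PND8 and -0.02 in repopulation, beside -0.03 and 0.00 for all genes. Within header codes the members' medians were -0.06 and 0.03 at PND8 and 0.00 and -0.07 in repopulation. A test of whether the Ki67 difference itself differed between the contexts called 0 members and 0 of all 12230 genes in edgeR. It gave 1 member with an unadjusted p under 0.05, and DESeq2 also called 0 members.

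**Figure D4:**
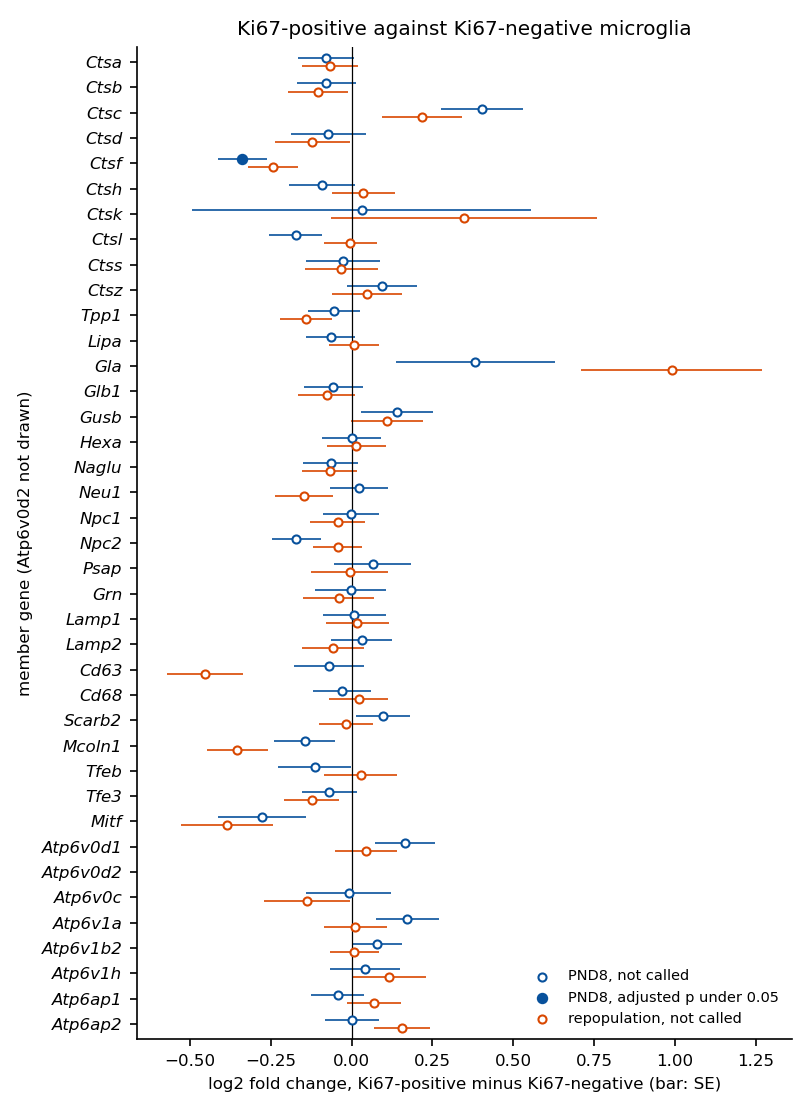
Log2 fold change of Ki67-positive over Ki67-negative cells (horizontal axis, bars are standard errors) for 38 members, PND8 in blue and repopulation in orange; filled points passed the test and Atp6v0d2 is left out because it was at 0 in both repopulating Ki67-positive libraries. Ctsf at PND8 is the 1 filled point, and the points farthest right are Ctsc at PND8, 0.40, and Gla in repopulation, 0.99.

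Of 76 further lysosomal genes listed for comparison, 72 were tested. Against adult 23 were higher and 19 lower in PND8 Ki67-positive cells, 23 and 10 in PND8 Ki67-negative, 26 and 14 in repopulating Ki67-positive and 25 and 7 in repopulating Ki67-negative cells. All genes were higher and lower in 25.1% and 24.3%, 25.4% and 21.4%, 23.9% and 21.0%, and 21.5% and 17.6% in these comparisons. Gpnmb, a membrane glycoprotein of macrophages under lysosomal load, had the order of Atp6v0d2, with 77.4 and 112 CPM in PND8 Ki67-negative and 72.0 and 77.9 in PND8 Ki67-positive cells, 0.463 and 0.855 in adults and at most 0.864 in the 4 repopulation libraries. Tfec, the remaining relative of Mitf in this family, was at 20.2 and 19.2 (Ki67-negative) and 17.5 and 12.2 (Ki67-positive) CPM at PND8 against 1.62 and 1.10 in adults and at most 2.89 in repopulation. So Tfec was higher in PND8 Ki67-positive cells (log2 3.43, adjusted p = 4.68e-06), where Mitf was lower, and in PND8 Ki67-negative cells (log2 3.83, adjusted p = 1.94e-06), in the libraries with the highest border macrophage marker sums.

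Other differences ran through all 4 reporter groups. Sgsh, the sulfamidase of heparan sulfate breakdown, was at 69.0 and 70.3 CPM in adults and between 8.91 and 21.0 in the 8 reporter libraries (log2 -1.82 to -2.60). Galns, a sulfatase of keratan sulfate, was at 28.1 and 30.3 CPM in adults and between 79.1 and 134.0 in the other 8. Ctse, an aspartic protease of endosomes, was at 0.810 and 0.489 CPM in adults, 2.10 and 2.57 (Ki67-negative) and 1.98 and 4.51 (Ki67-positive) at PND8 and 15.1 and 16.0 (Ki67-negative) and 20.8 and 18.9 (Ki67-positive) in repopulation, 2.62 higher on the log2 scale in repopulating than in PND8 Ki67-positive cells (adjusted p = 3.64e-05). Between Ki67-positive and Ki67-negative cells 0 of the 72 passed at PND8 in edgeR, with 10 at an unadjusted p under 0.05, and 1, Abca2, in repopulation (log2 -0.39, adjusted p = 0.0431), a call lost without either repopulating Ki67-negative library or Ki67-positive replicate 2 (adjusted p = 0.0641 to 0.514) and without either adult or PND8 Ki67-positive library.

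Promoter sequences were available for 33 of the 39 members, from RefSeq windows on GRCm38.p6 that run from 250 bases before to 50 after a transcript start. Ctsb, Ctsh, Npc1, Atp6v0d2, Atp6v1b2 and Atp6v1h had none in that table. The E-box core CACGTG, searched on both strands, was in the window of 11 of the 33, or 33.3%, against 8.09% of all 27025 genes of the table and 11.7% of the 9744 that were also tested for RNA. The longer form TCACGTGA was in 6 members (1.12% of all genes and 2.19% of those tested for RNA), and GTCACGTG in 8 (2.55% and 4.75%). The median GC content was 57.6% in the members' windows and 52.7% in all windows. Its part in these shares was not tested. The counts for the core and for both longer forms include Ctsa, whose match lies in the window of a start other than that of the counted transcript. Both longer forms contain the core, and together they make up the sequence known as the CLEAR element, to which TFEB binds.

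The stretches printed here show the 8 members with a longer form whose window starts at the counted transcript, 5′ to 3′ on the gene's own strand. Capitals mark the E-box core and any adjoining bases that match part or all of a longer form. They need not make up a full longer form. Of the 4 cores of Lamp1 only CACGTGAC does, as GTCACGTG on the other strand. The 8 members are Ctsd (chr7:142387893-142387951, minus strand), Mcoln1 (chr8:3500421-3500506, plus), Lamp1 (chr8:13159074-13159172, plus), Atp6v0d1 (chr8:105566053-105566094, minus), Glb1 (chr9:114401003-114401060, plus), Naglu (chr11:101069994-101070051, plus), Atp6v1a (chr16:44139359-44139416, minus) and Gla (chrX:134601168-134601255, minus).
Lamp1: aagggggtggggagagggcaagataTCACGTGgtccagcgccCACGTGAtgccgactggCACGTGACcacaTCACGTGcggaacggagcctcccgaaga
Mcoln1: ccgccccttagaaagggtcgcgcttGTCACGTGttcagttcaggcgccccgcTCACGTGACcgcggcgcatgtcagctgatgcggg
Ctsd: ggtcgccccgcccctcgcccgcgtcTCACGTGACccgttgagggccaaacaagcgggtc
Glb1: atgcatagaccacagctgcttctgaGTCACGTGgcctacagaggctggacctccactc
Naglu: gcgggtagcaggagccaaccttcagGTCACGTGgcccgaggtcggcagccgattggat
Gla: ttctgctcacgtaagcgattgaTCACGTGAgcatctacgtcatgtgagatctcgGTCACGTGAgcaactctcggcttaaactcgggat
Atp6v0d1: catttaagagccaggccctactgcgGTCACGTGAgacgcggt
Atp6v1a: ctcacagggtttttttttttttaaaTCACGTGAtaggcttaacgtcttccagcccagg
Lamp1 held 4 cores, the first of them 61 bases before its start, and Mcoln1 and Gla held 2 each. The core of Atp6v0d1 began 3 bases before the start and so ran across it. A second core of Ctsd, 245 bases before its start, is not shown. Among these 8, Atp6v0d1 and Atp6v1a were higher than adult in all 4 groups, Lamp1 at PND8, Naglu in repopulation and Gla in 3 groups, Glb1 was lower at PND8 and higher in repopulation, Mcoln1 was lower in 1 group, and Ctsd was called in none. Of the 11 members with the core 5 were higher and 1 lower than adult in PND8 Ki67-positive cells, and of the 22 without it 5 were higher and 3 lower. In repopulating Ki67-positive cells these counts were 5 and 1 of 11, and 9 and 3 of 22. They were 6 and 1 of 11, and 6 and 3 of 22, in PND8 Ki67-negative cells. In repopulating Ki67-negative cells they were 5 and 0 of 11, and 11 and 3 of 22. Of all genes 25.1% were higher and 24.3% lower in PND8 Ki67-positive and 23.9% and 21.0% in repopulating Ki67-positive cells. The shares were 25.4% and 21.4% in PND8 Ki67-negative and 21.5% and 17.6% in repopulating Ki67-negative cells. A match in these windows is a match of letters and no measurement of binding.

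Nearly all members carried H3K27ac at the transcript start in every context. A region of the authors' lists within 1000 bases of the start was present in both libraries of a group for 37 of 39 members in adult (all genes: 40.8%), in PND8 Ki67-negative (48.1%), in PND8 Ki67-positive (49.2%), in cuprizone Ki67-negative (43.8%) and in cuprizone Ki67-positive cells (45.8%). In repopulating Ki67-positive cells it was present for 36 (all genes: 47.2%). Among the genes tested for RNA the shares were 68.7% in adult and up to 82.3% in PND8 Ki67-positive cells. The members without a region in any of the 12 libraries were Ctsk and Atp6v0d2, and Atp6v1h lacked one in repopulation replicate 2. No member gained a region in both libraries of a group from neither adult library, or lost one in that sense.

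Regions at these starts ranked high within their libraries by signal, the authors' tag count normalised to library size. The median member stood at percentile 77.3 to 87.3 of its library's list, where the median over all genes with a region at the start was 58.7 to 71.0. This all-gene median was 60.0 and 59.0 in adult, 68.9 to 71.0 at PND8 and 68.7 and 65.6 in repopulation. In cuprizone it was 58.7 and 67.1 (Ki67-negative) and 60.3 and 67.3 (Ki67-positive). Grn, Atp6v0c, Ctsz, Cd68 and Hexa had median percentiles of 99.6 or more over the 12 libraries, and Atp6v1h had the lowest, 40.1. Since the lists differ in length (19572 to 30539 regions), a rank places a region within its own list and shows no change between libraries. The width of a region also differed between libraries, for example 924 to 3292 bases for Psap and 760 to 3214 for Mitf. Ranks by signal take no account of width, and its part in them was not tested.

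Read in that way, Cd63, Psap and Ctsl spanned percentiles 38.3 to 93.6, 50.6 to 97.6 and 62.9 to 88.7. Mitf spanned more than any of these, 22.3 to 87.8. Glb1 (43.3 to 80.3), Ctsf (55.9 to 87.0) and Neu1 (41.1 to 72.5) were among those that spanned more than Ctsl. The Cd63 region was at percentiles 42.8 and 38.3 in the repopulation libraries, 62.6 and 74.7 in adult, 88.2 and 83.4 (Ki67-negative) and 77.0 and 74.2 (Ki67-positive) at PND8, and 84.6 and 93.0 (Ki67-negative) and 91.0 and 93.6 (Ki67-positive) in cuprizone. The 2 repopulation libraries were the lowest of the 12. Psap was at 97.6 and 93.2 in repopulation, the 2 highest of the 12, against 50.6 and 77.3 in adult and 79.2 to 89.1 in the 8 others. Ctsl was at 87.2 and 87.6 (Ki67-negative) and 87.4 and 88.7 (Ki67-positive) at PND8, the 4 highest, and at 73.9 and 62.9 in repopulation, the 2 lowest.

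Glb1 was at 43.3 and 47.4 in adult, its 2 lowest, and at 79.1 and 73.1 (Ki67-negative) and 80.3 and 76.7 (Ki67-positive) at PND8, its 4 highest. Mitf was at 22.3 and 57.8 in adult and 81.1 and 85.9 (Ki67-negative) and 84.7 and 87.8 (Ki67-positive) in cuprizone, its 4 highest. Ctsh was at 75.8 to 81.2 at PND8 and 87.9 and 79.9 in repopulation. With 2 libraries per group none of these orders was tested. The all-gene median percentile also differed between groups, and its part in these orders was not tested. RNA of cuprizone-treated mice is not analysed here.

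**Figure D5:**
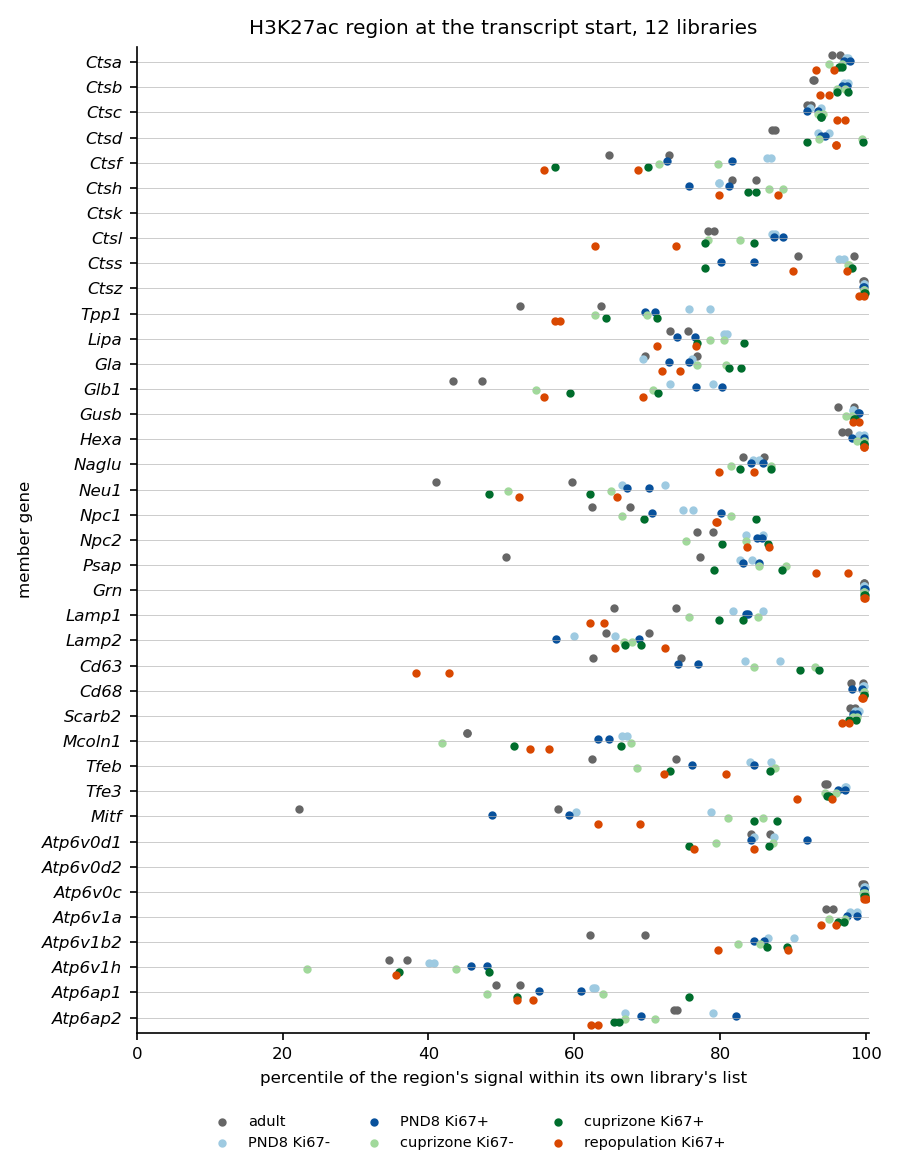
Percentile of the H3K27ac region at each member's transcript start within its own library's list by signal (horizontal axis), 1 point per library, coloured by group; Ctsk and Atp6v0d2 have no region. Cd63 has its 2 repopulation points at 42.8 and 38.3, left of all others, and Psap has them at 97.6 and 93.2, right of all others.

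Of the 39 starts 37 had an H3K4me3 region, a mark of promoters, in both adult libraries (59.1% of all genes), again all but Ctsk and Atp6v0d2. ATAC-seq, which marks accessible DNA and had 1 library per group, listed a peak at 37 starts in adult (56.0% of all genes), and at 36 each in the Ki67-positive libraries of PND8 (58.4%) and repopulation (60.8%), where Atp6v0c was the third without one. Rpb2, a subunit of RNA polymerase II, had a peak at 34 starts in both adult libraries (28.1% of all genes) and at 38 in the 1 PND8 Ki67-positive library (48.4%), all but Atp6v0d2. That PND8 library held 31602 peaks against 14550 and 10544 in the adult libraries, so its higher count is not read as a gain. Among the genes tested for RNA, as all members were, the share was 89.8% for H3K4me3. For ATAC-seq it was 88.3% in adult, 89.2% at PND8 and 90.8% in repopulation. For Rpb2 it was 47.5% in adult and 80.4% at PND8. The members' H3K4me3 and ATAC-seq counts were near those shares.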

How the data were processed

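Male C57BL/6 mouse microglia were profiled by RNA-seq (10 libraries), ChIP-seq and ATAC-seq. Reads were processed with STAR 2.7.0f, Bowtie2 2.3.4.1 and HOMER 4.11 on mm10, per the submitters' processing notes. The deposited RNA counts are HOMER tag counts over exons with at most 3 tags per position, per the file headers, and they were 6865903 to 10287876 per library. The deposited TPM table, also per the file headers, scales by transcript length and names another transcript for 13 members. Region lists give each region's signal, a tag count the authors normalised to library size, and a score, per the file headers; the score was used in 1 alternative only, which kept the upper part of each list.

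From the counts, edgeR 4.0.16 (quasi-likelihood, TMM, filterByExpr, all 5 groups in 1 fit without a block) tested 12230 genes, with Benjamini-Hochberg adjustment and a threshold of 0.05. The labels call the 2 samples of a group independent biological replicates. Alternatives were DESeq2 1.42.0, limma 3.58.1 on log2 TPM, other filters, scalings and batch terms, and each library left out. The counting code was tested on simulated data. Within a library, region ranks used the authors' signal, and a start had a region if one lay within 1000 bases. The members and lists were chosen with earlier results of these data known. The text names the members called in opposite directions, those with the largest changes per comparison, a fixed panel (Ctsd, Hexa, Lamp1, Npc2, Psap, Tfeb, Atp6v1a), and up to 3 other lysosome genes per direction; further members were named after their values were seen.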

Additional observations from a re-analysis of the deposited data

Results flagged for a closer look

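A set of 4 members differed between the 2 contexts by a direct test, with calls against adult that pointed in opposite directions. In Ki67-positive cells the repopulation minus PND8 differences were 1.87 for Ctsh, -1.30 for Cd63 and 1.09 for Glb1 on the log2 scale, with edgeR adjusted p-values of 2.15e-08, 2.06e-06 and 1.09e-06. Among Ki67-negative cells they were 1.15 for Ctsc, 1.74 for Ctsh, -0.92 for Cd63 and 1.11 for Glb1 (adjusted p = 1.38e-05, 3.15e-08, 3.61e-05 and 8.15e-07). In each case both libraries of one context lay above both libraries of the other. Since these members were picked for opposite calls against the same adult libraries, a direct difference without overlap follows largely from that choice. The calls of Cd63 and Ctsc against adult in repopulating Ki67-negative cells were lost when single libraries were left out.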

How the results depend on the processing

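With 2 libraries per group, single calls near the threshold depend on the spread estimate. The count of members called between Ki67-positive and Ki67-negative cells at PND8, 1 in the test reported, was 2 with DESeq2, 3 without the filter on low counts, 0 with only the 2 groups compared, 2 with header code as a covariate and 0 to 2 with 1 library left out. In repopulation the count of 0 became 1 with DESeq2, 3 without the filter, 4 with the header code and 0 to 4 with 1 library left out. With the replicate number as a block the counts were 2 (Ctsf and Ctsc) and 3 (Cd63, Mcoln1 and Gla). Libraries of 1 number share that number in the labels and, within a context, a header code; their deviations correlated at 0.34 at PND8 and 0.31 in repopulation, over 2 pairs each. The 21 calls between contexts in Ki67-negative cells became 12 with only the 2 groups compared. With 1 library left out, the counts ranged from 12 to 22 (PND8 Ki67-positive against adult), 13 to 21 (PND8 Ki67-negative), 12 to 22 (repopulating Ki67-positive), 8 to 22 (repopulating Ki67-negative), 9 to 23 (between contexts, Ki67-positive) and 14 to 23 (Ki67-negative). The member count in the test of the difference between contexts stayed 0 in each alternative run. Over 773 alternatives for 68 results on single genes, 710 kept direction and side of the threshold, 63 lost the call and 0 reversed. Of these, Mitf in PND8 Ki67-negative cells lost its call in 7 of 11 and Npc1 there in 5. The 68 results were chosen by the size of their change or by opposite directions, and other calls are not among them. Only libraries of the groups compared were left out in their alternatives. The counts of starts with H3K27ac were 33 to 37 under each alternative run. No fit against adult with the header code as a term was run, since adult has a code of its own.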
